A study of Homo sapiens with 8 samples.

Results

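The comparison described here is that of indisulam-resistant Panc10.05 cells kept on the drug with the same cells on a drug holiday, and it used 4 of the 8 libraries of the series, chosen by their titles. Panc10.05 is an established human pancreatic cancer line, and the resistant derivative was selected from it by growth in increasing concentrations of indisulam, as described in the study's methods. The resistant indisulam group (2 libraries) was cultured without interruption in 2 µM indisulam. The resistant untreated group (2 libraries) had been off the drug for 1 week. Rises and falls below give the level on drug relative to the holiday and not an order in time. A change brought by the drug and one brought by its withdrawal cannot be told apart in this comparison. The other 4 libraries of the series came from parental Panc10.05 cells, either untreated or given 2 µM indisulam for 18 h, and are used below for the shared estimate of spread, for values side by side and for tests of how the lines differed. The labels name no transgene or deletion, and whether the resistant line was derived from 1 clone was not given in the sources used here. In the labels, the notes on growth and treatment speak of A549 lung cancer cells, while the titles and the cell line field give Panc10.05, and the titles were followed. Libraries of a group are described in the study as technical replicates, so the p-values below concern the spread between these libraries and not between independent derivations of resistance.

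Indisulam is a sulfonamide that acts as a molecular glue. It docks the RNA-binding splicing factor RBM39 onto DCAF15, the substrate receptor of a CUL4 ubiquitin ligase that also holds DDB1 and DDA1, and RBM39 protein is then ubiquitinated and degraded. Loss of RBM39 alters the splicing of many transcripts. The gene groups described at most length below belong to the interferon response, in which secreted interferons or intracellular nucleic acid sensors lead to activation of STAT and IRF transcription factors and, through them, of a large set of antiviral genes, and to the cell cycle, in which replication genes and mitosis genes are transcribed in different phases under different regulators.

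Between 65266253 and 93393805 reads per resistant library were assigned to genes, and 22728 to 25263 genes had at least 1 read. The 2 libraries of a group correlated across genes with r = 0.9964 (holiday) and 0.9973 (on drug) on the log2 CPM scale (CPM is the read count scaled to a common library size), and libraries of different resistant groups with r of 0.9895 to 0.99. Markers of pancreatic ductal epithelium were present, 11 of 12 at more than 10 reads in at least 1 resistant library, CFTR being the exception. Their summed level was 11360 and 11340 CPM (of library totals) on holiday and 13270 and 12930 on drug. Fibroblast markers summed to 1.37 and 1.92 CPM on holiday and 4.26 and 4.18 on drug, with COL1A1 as the single marker of 9 above 10 reads and DCN and LUM without a read. Leukocyte markers summed to 3.52 and 3.91 on holiday and 6.28 and 6.39 on drug, mostly from CSF1R and ITGAM, and PTPRC, CD3E and MS4A1 had no read in these libraries. The part of these markers in the results below was not tested. At most 13 reads per library fell on any endothelial marker other than VWF, and at most 4 on any of 10 acinar and islet markers. Reads assignable to no gene made up 4.72% and 5.41% of assignable reads on holiday and 6.16% and 6.21% on drug.

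A large share of the tested genes differed, mostly by little. Of 16661 genes tested with edgeR's quasi-likelihood test, 8446 (50.7%) had a Benjamini-Hochberg adjusted p under 0.05, 4149 (24.9%) of them higher on drug and 4297 (25.8%) lower. The median absolute change of these genes was 0.29 on the log2 scale, and the median log2 fold change over all tested genes was 0.0093. Changes past 1 log2 unit were called higher on drug for 623 genes (3.74%) and lower for 244 (1.46%). With libraries scaled to their totals in place of TMM factors, 59.7% of the calls were higher on drug, against 49.1% here. Every count of list members below is to be read against these percentages.

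**Figure D1:**
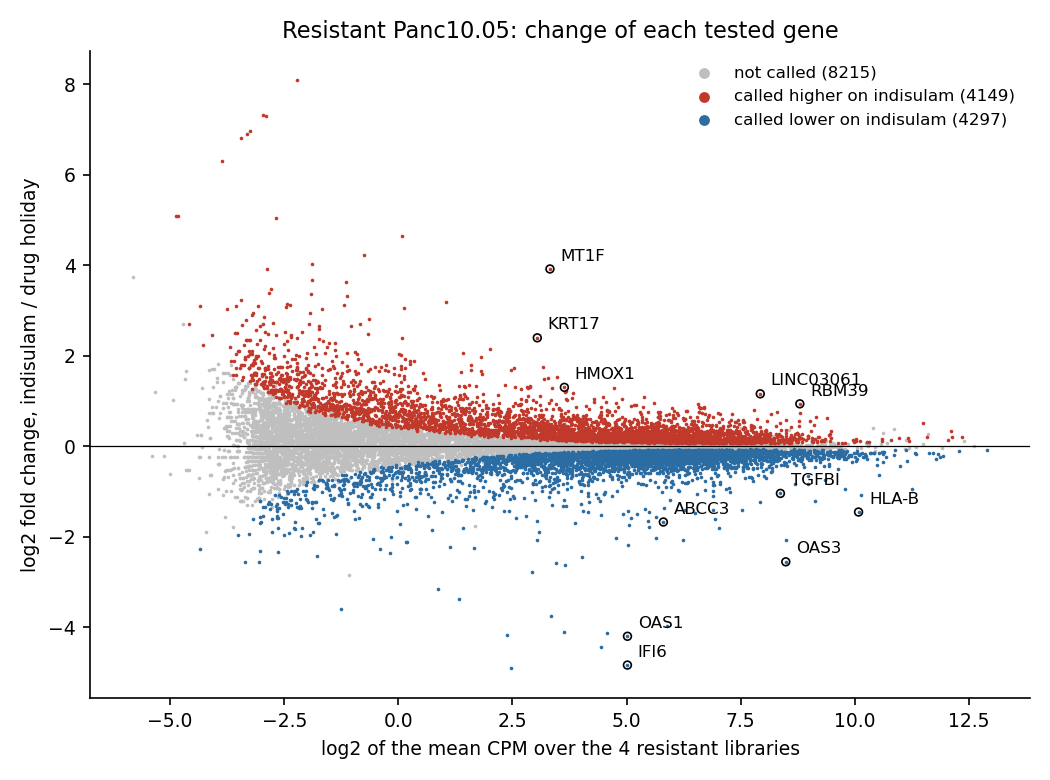
Each point is 1 of the 16661 tested genes, with the log2 of its mean CPM over the 4 resistant libraries on the x axis and its log2 fold change on drug against drug holiday on the y axis, coloured by call, with a few genes named. Interferon genes such as IFI6 (log2 fold change -4.83) and OAS1 (-4.20) lie lowest at moderate and high levels, and the large rises lie mostly at low levels, among them 9 genes without a read on holiday whose plotted change depends on the model's prior count.

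The transcript of the drug target rose on drug. RBM39 (ENSG00000131051, chromosome 20, 35701347 to 35742312) stood at 299 and 311 CPM in the holiday libraries and at 577 and 591 CPM in the on-drug libraries. The groups did not overlap, and the log2 fold change was 0.94 (SE 0.029, adjusted p 7.3e-18, edgeR). In parental cells the same transcript was at 332 and 336 CPM untreated and 716 and 731 CPM after 18 h of drug. DCAF15, which binds the drug, moved from 23.7 and 24.6 to 27.4 and 25.8 CPM, a log2 fold change of 0.14 (adjusted p 0.010), and this call was lost without resistant untreated replicate 1 (adjusted p 0.089) or resistant indisulam replicate 1 (adjusted p 0.15) and with the DESeq2 Wald test (adjusted p 0.084). DDA1, a stabilising subunit of the ligase, was at 35.5 and 36.8 CPM on holiday and 41.6 and 40.4 CPM on drug (log2 fold change 0.18, adjusted p 0.00040). CAND1, the exchange factor of cullin ligases, was at 253 and 252 CPM on holiday and 243 and 251 CPM on drug and did not pass the test (log2 fold change -0.030, SE 0.028, adjusted p 0.38). The list of the ligase, its neddylation enzymes and the COP9 signalosome also held RBM39. Of its 24 tested genes 6 were called higher, RBM39 among them, and 8 lower, with a median of -0.029. NAE1, which encodes a subunit of the NEDD8-activating enzyme, showed the largest fall of this list, from 109 and 105 to 76.6 and 76.8 CPM (log2 fold change -0.48, adjusted p 7.7e-12).

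Antiviral genes of the interferon response showed the largest falls on continued drug. The 10 genes with the largest falls among those with a log2 CPM averaging at least 3 over the 4 libraries were IFI6, IFI44L, OAS1, IFI27, OAS2, SP110, OAS3, USP18, IFITM1 and PARP9, all of them in the lists of antiviral effectors or of ISG15 conjugation. The promoters of 3 genes of these lists are shown because the same short motif recurs in this group. They are the 170 bases before the annotated start site in RefSeq on GRCh38.p14, 5′ to 3′ on the strand of the gene, with matches to the core of the interferon-stimulated response element (GAAANNGAA, searched on both strands) in capitals. IFI6 lies at chr1:27672193-27672362, minus strand, IFI44L at chr1:78620278-78620447, plus strand and ISG15 at chr1:1013327-1013496, plus strand.
IFI6: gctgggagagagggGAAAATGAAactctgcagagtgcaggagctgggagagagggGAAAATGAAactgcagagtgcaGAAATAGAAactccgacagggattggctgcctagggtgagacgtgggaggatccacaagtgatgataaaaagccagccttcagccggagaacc
IFI44L: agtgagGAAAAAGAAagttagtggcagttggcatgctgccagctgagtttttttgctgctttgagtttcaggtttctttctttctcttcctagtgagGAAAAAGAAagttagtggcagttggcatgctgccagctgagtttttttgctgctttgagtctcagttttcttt
ISG15: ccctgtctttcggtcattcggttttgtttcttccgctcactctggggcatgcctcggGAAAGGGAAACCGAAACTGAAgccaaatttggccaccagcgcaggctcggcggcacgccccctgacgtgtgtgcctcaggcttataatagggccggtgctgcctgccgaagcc
The IFI6 window held 3 matches, which begin 156, 115 and 93 bases before the start, and those of ISG15 begin 113, 107 and 101 bases before it and run into each other. In RefSeq promoters of 300 bases (250 before to 50 after the start) the letters were found for 35 of the 50 antiviral genes with a promoter entry (70%), 9 of 18 genes of MHC class I presentation (50%), 6.57% of the 11146 promoters of tested genes and 8.29% of all 27305 promoters. A match describes the letters and not a bound site.

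In the list of antiviral interferon-induced effectors, 63 of 67 tested members fell on drug and none rose, 40 of them past 1 log2 unit, against 25.8% and 1.46% of all tested genes. The median log2 fold change was -1.42, and the medians from the 4 single pairs of an on-drug with a holiday library ran from -1.46 to -1.34. IFI6 (ENSG00000126709, chromosome 1, 27666064 to 27672212), a mitochondrial and endoplasmic reticulum protein that limits virus replication, was at 62.8 and 62.5 CPM on holiday and 2.03 and 2.32 CPM on drug. Its log2 fold change was -4.83 (SE 0.060, adjusted p 1.5e-25), and both on-drug libraries were far below both holiday libraries. IFI44L went from 41.4 and 42.1 to 1.93 and 1.93 CPM (log2 fold change -4.43, adjusted p 4.0e-24). IFI27, another small interferon-induced mitochondrial protein, went from 44.9 and 44.4 to 2.67 and 2.45 CPM (log2 fold change -4.13, adjusted p 2.3e-23). For each of these 3 genes the on-drug level was still above that of parental cells, where IFI6 was at 0.621 and 0.505 CPM untreated, IFI44L at 0.502 and 0.627 CPM and IFI27 at 0.895 and 0.852 CPM.

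The OAS enzymes, which make 2′-5′ oligoadenylate upon binding double-stranded RNA, fell in all 4 members. OAS1 (chromosome 12, 112905856 to 112933219) was at 63.9 and 59.2 CPM on holiday and 3.16 and 3.50 CPM on drug (log2 fold change -4.20, SE 0.061, adjusted p 3.2e-24). OAS2 was at 111 and 112 CPM and then 7.11 and 7.15 CPM (log2 fold change -3.96), and OAS3 at 617 and 609.5 CPM and then 107.6 and 102 CPM (log2 fold change -2.55). The holiday and on-drug libraries did not overlap in any of the 3, which the naming rule required. MX2, a dynamin-like GTPase that blocks virus uncoating, fell from 10.2 and 11.3 to 0.430 and 0.302 CPM (log2 fold change -4.91, SE 0.15, adjusted p 2.8e-17), and both MX genes were called. All 4 IFIT genes, which bind viral RNA ends, were called lower with log2 fold changes from -2.02 to -0.47, as were the 3 IFITM genes, which hinder virus entry, from -2.19 to -0.36. IFITM1 was at 54.9 and 52.6 CPM on holiday and 12.98 and 10.8 CPM on drug. All 5 antiviral TRIM ubiquitin ligases (-3.37 to -0.55) and all 5 genes of the PARP9 and DTX3L group (-2.07 to -0.83) fell. PARP9 itself (log2 fold change -2.07) is uncertain, because its exons overlap those of DTX3L on the opposite strand, which holds 67.8% of the reads of the pair, and the strand setting of the counting was not given in the sources used here. SP110, a nuclear body protein, fell from 21.7 and 21.7 to 3.66 and 3.44 CPM (log2 fold change -2.62, adjusted p 2.4e-19). Among the 4 list members that were not called was ISG20, a 3′ exonuclease, with 4.58 and 5.57 CPM on holiday and 4.67 and 4.50 CPM on drug (log2 fold change -0.14, adjusted p 0.23, and 0.033 without resistant untreated replicate 1).

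**Figure D2:**
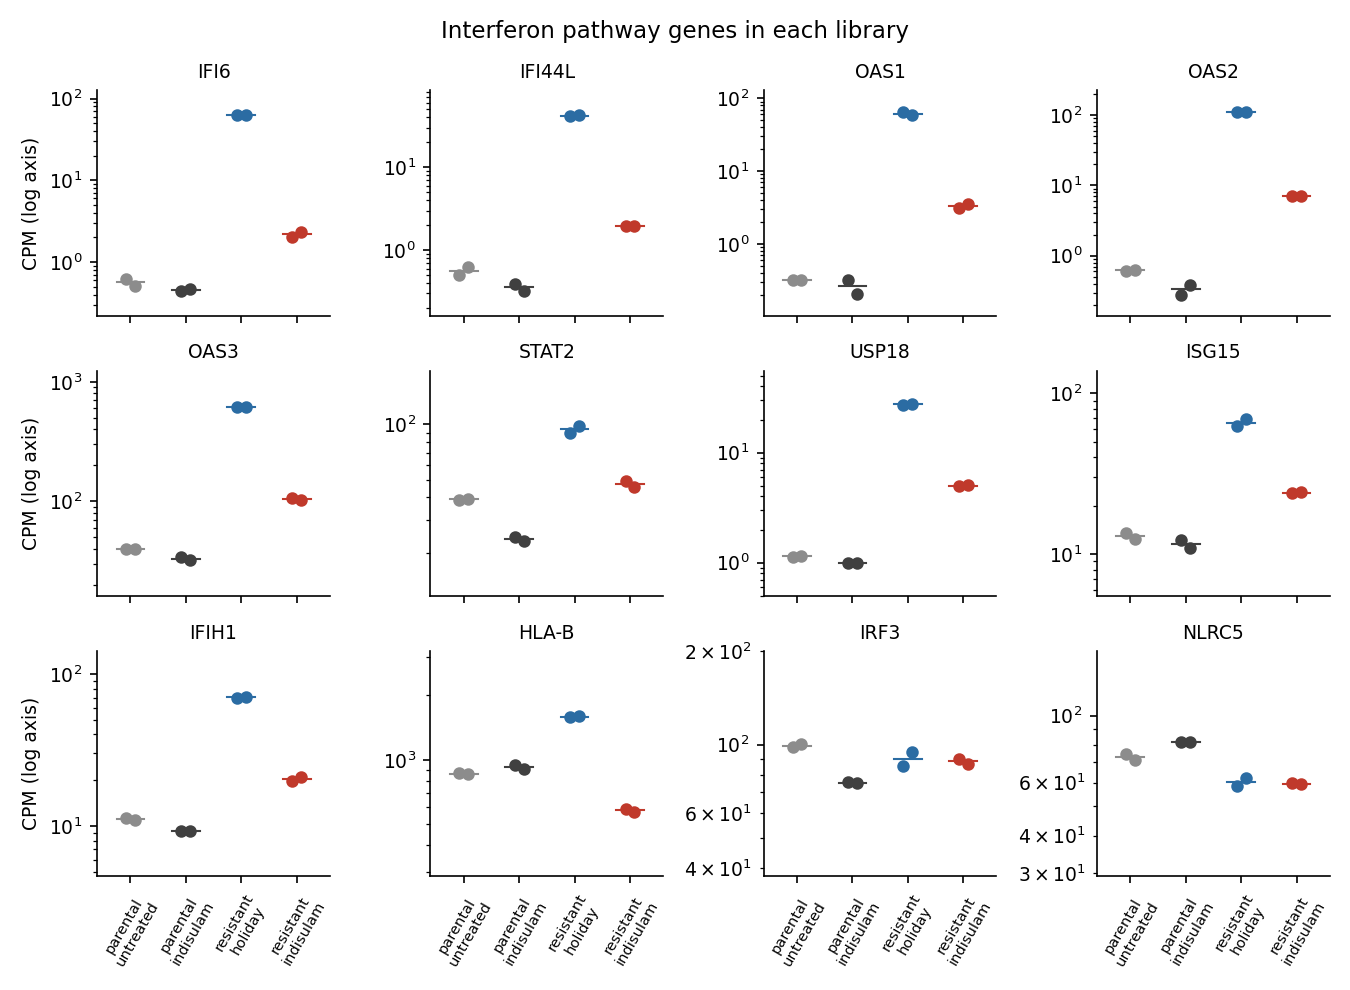
CPM of 12 genes of the interferon pathway and antigen presentation in each of the 8 libraries, on a log axis for each gene, with points for libraries and a line for the mean of the 2 libraries of a group. The holiday libraries are highest in the first 10 panels, and IRF3 and NLRC5, which were not called, show overlapping resistant groups.

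ISG15 conjugation fell as a whole module. ISG15 is a ubiquitin-like protein, UBE2L6 its conjugating enzyme, HERC6 a ligase of the HERC family and USP18 the protease that removes it and also restrains the interferon receptor. 6 of 6 tested genes of this list were called lower, with a median of -1.42 and single-pair medians from -1.45 to -1.39. USP18 was at 27.1 and 27.7 CPM on holiday and 4.94 and 5.11 CPM on drug (log2 fold change -2.45, SE 0.058, adjusted p 3.7e-20). HERC6 moved from 44.02 and 43.8 to 10.3 and 11.2 CPM (log2 fold change -2.02), ISG15 from 62.3 and 69.1 to 23.8 and 24.3 CPM (log2 fold change -1.45) and UBE2L6 from 63.5 and 58.5 to 22.8 and 23.8 CPM (log2 fold change -1.39). Holiday and on-drug libraries were apart for all 4 genes, as the rule for naming called genes required.

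The signal transducers of the pathway were split. STAT2 (ENSG00000170581, chromosome 12, 56341597 to 56360203) moved from 90.1 and 97.7 to 49.2 and 45.7 CPM (log2 fold change -0.99, adjusted p 3.5e-13) and IRF9, which binds DNA together with STAT2, from 3.98 and 4.73 to 1.94 and 2.05 CPM (log2 fold change -1.12, adjusted p 3.0e-08). Both genes are themselves interferon-induced. The list of receptors, kinases, STATs and IRFs also held USP18. Of its 22 tested genes 7 were called lower, USP18 among them, and 9 higher, with a median of 0.027. Of the 6 receptor chains 2 were called higher and 2 lower, and of the 3 JAK kinases 2 were called higher and none lower. IRF3, which acts downstream of the nucleic acid sensors, was at 85.5 and 94.6 CPM on holiday and 89.8 and 86.5 CPM on drug and was not called (log2 fold change -0.030, adjusted p 0.54), although it was called lower without resistant untreated replicate 1 (adjusted p 0.031). Interferon genes themselves gave few reads. IFNB1 had 9 and 5 reads on holiday and 2 and 5 on drug, IFNL1 had 12 and 8 and then 5 and 8, and neither passed the filter on low counts. IFNA1, IFNA2, IFNG and IFNL2 had no read in the 4 libraries. IFNE, the 1 tested gene of 9 listed interferons, had 46 and 49 reads on holiday and 61 and 80 on drug. It was not called (log2 fold change 0.34, adjusted p 0.14, edgeR).

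Among nucleic acid sensors and their adaptors, 13 of 20 tested genes fell and 4 rose (median -0.46). The cytosolic double-stranded RNA sensor IFIH1 (MDA5) was at 69.7 and 70.8 CPM on holiday and 19.6 and 20.97 CPM on drug (log2 fold change -1.78, SE 0.039, adjusted p 9.0e-21). RIGI, which detects RNA with 5′ triphosphates, moved from 140.2 and 139 to 70.2 and 71.7 CPM (log2 fold change -0.97). IFI16, a nuclear DNA sensor, moved from 67.1 and 66.98 to 21.03 and 21.5 CPM (log2 fold change -1.66). CGAS, the cytosolic DNA sensor, was at 78.5 and 82.03 CPM on holiday and 78.4 and 77.8 CPM on drug and was not called (log2 fold change -0.039, adjusted p 0.32).

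Genes of antigen presentation by MHC class I fell on drug. 19 of 22 tested genes were called lower and none higher, with a median of -0.48 (single-pair medians -0.50 to -0.43). HLA-B (chromosome 6, 31353872 to 31367067), a heavy chain that presents peptides to T cells, was at 1575 and 1602 CPM on holiday and 589 and 573 CPM on drug (log2 fold change -1.45, SE 0.030, adjusted p 2.7e-21). HLA-C moved from 782 and 789 to 349.6 and 332 CPM (log2 fold change -1.20) and HLA-F from 79.2 and 83.1 to 31.7 and 31.8 CPM (-1.35). In each of these 3 genes the on-drug libraries were also below the untreated parental libraries, where HLA-B was at 868 and 855 CPM and HLA-C at 482 and 474 CPM. B2M, the shared light chain, was named after its values were seen. It fell from 1185 and 1141 to 602 and 614 CPM (log2 fold change -0.94, adjusted p 7.4e-18). HLA genes are close in sequence and highly variable between people, so reads may be split between them by the aligner, and HLA-H, a pseudogene of the same family (log2 fold change -0.999), shares that uncertainty. The 4 genes of peptide transport and loading fell by less, from -0.84 to -0.38, as did the 5 of the immunoproteasome and its activator, from -0.69 to -0.36, and the 3 lectin chaperones of the endoplasmic reticulum, from -0.27 to -0.14. NLRC5, the transactivator of class I genes, was at 58.6 and 61.98 CPM on holiday and 59.7 and 59.2 CPM on drug and was not called (log2 fold change -0.020, adjusted p 0.66).

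In parental cells given indisulam for 18 h, a shorter exposure than that of the resistant cells, the median over the antiviral list was -0.26 and that over MHC class I presentation 0.026 (-0.041 with library totals). The parental baseline was untreated cells, while the resistant baseline was cells on a drug holiday. How the responses of the lines differed was tested as an interaction in the same fit, which called 8351 of 16661 genes (50.1%). It was -4.51 log2 units for IFI6 (SE 0.25, adjusted p 2.4e-12), -2.29 for OAS3 (adjusted p 5.1e-20) and -1.56 for HLA-B (adjusted p 5.1e-18).

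Inflammatory genes that answer to NF-kB did not follow the interferon genes. Of 31 tested members, 15 were called higher and 6 lower (median 0.16). TNFAIP3, an NF-kB target that restrains the pathway, rose from 30.04 and 30.6 to 50.2 and 49.2 CPM (log2 fold change 0.71, adjusted p 2.5e-13), and LTB, a lymphotoxin chain, from 4.97 and 4.85 to 7.995 and 8.83 CPM (log2 fold change 0.78, adjusted p 6.6e-09).

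Cell cycle genes moved in opposite directions by phase. Genes of DNA replication were lower and genes of mitosis higher on drug. In bulk RNA a different share of cells in a phase and a different level per cell cannot be told apart. Short promoter windows are printed for comparison, again the 170 bases before the RefSeq start on GRCh38.p14. MCM6 and POLA1 are from the replication list and CCNB2 is from the mitosis list. PIF1, which rose on drug, is from the DNA repair list and not from the mitosis list. Capitals mark in MCM6 and POLA1 any of 4 forms of the E2F motif (TTTCCCGC, TTTGGCGC, TTTGCCGC and TTTCGCGC) and in CCNB2 and PIF1 the letters of the cell cycle homology region, CHR (TTTGAA), on either strand. MCM6 lies at chr2:135876444-135876613, minus strand, POLA1 at chrX:24693748-24693917, plus strand, CCNB2 at chr15:59104976-59105145, plus strand and PIF1 at chr15:64825648-64825817, minus strand.
MCM6: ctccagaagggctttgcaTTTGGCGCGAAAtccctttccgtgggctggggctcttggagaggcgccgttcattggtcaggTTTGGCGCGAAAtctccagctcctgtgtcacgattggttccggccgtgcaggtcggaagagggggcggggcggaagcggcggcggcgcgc
POLA1: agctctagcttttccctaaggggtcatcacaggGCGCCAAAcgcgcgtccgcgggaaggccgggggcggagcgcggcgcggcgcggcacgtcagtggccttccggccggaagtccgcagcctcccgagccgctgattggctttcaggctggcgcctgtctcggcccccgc
CCNB2: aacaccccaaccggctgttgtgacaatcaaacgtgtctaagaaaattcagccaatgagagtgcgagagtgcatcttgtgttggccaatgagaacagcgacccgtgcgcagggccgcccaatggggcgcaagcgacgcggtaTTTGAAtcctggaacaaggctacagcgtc
PIF1: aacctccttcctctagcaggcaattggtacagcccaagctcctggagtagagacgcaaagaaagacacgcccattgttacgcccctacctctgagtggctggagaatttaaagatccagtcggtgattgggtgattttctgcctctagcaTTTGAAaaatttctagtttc
An E2F form was present in 19 of 43 replication promoters of 300 bases (44.2%), in 4 of 47 mitosis promoters (8.51%) and in 5.28% of the promoters of tested genes (3.33% of all). The CHR letters were present in 31 of 47 mitosis promoters (66.0%), in 1 of 43 replication promoters (2.33%) and in 9.72% of those of tested genes (15.4% of all). In MCM6 2 overlapping matches sit at each of 2 places, 4 in all. CDC45, the member of the replication list with the largest fall, held none of these letters in its window.

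Of 50 tested genes of DNA replication and nucleotide supply, 45 fell and none rose, with a median of -0.33 and single-pair medians from -0.35 to -0.31. CDC45, part of the replicative helicase, was at 103 and 101 CPM on holiday and 58.8 and 56.9 CPM on drug (log2 fold change -0.82, SE 0.032, adjusted p 9.9e-16). POLA1, the catalytic subunit of polymerase alpha, moved from 134 and 132 to 79.3 and 77.3 CPM (log2 fold change -0.76, adjusted p 3.5e-15), and POLE2, a subunit of polymerase epsilon, from 51.3 and 49.6 to 31.8 and 32.1 CPM (-0.66, adjusted p 6.0e-13). All 6 MCM helicase subunits fell, from -0.70 to -0.35, among them MCM6 with 241 and 237 CPM on holiday and 146 and 148 CPM on drug (log2 fold change -0.70, adjusted p 8.8e-16). The 4 GINS subunits fell too, and 8 of 9 replicative polymerase and primase subunits. RRM1, the large subunit of ribonucleotide reductase, was at 589 and 564 CPM on holiday and 556 and 564 CPM on drug and was not called (log2 fold change -0.042, adjusted p 0.24).

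The change was smaller or mixed around the replication genes. Of 26 tested G1-S cyclins, kinases, inhibitors and E2F factors, 13 fell and 8 rose (median -0.080). E2F1, which drives replication genes, was at 115 and 118 CPM on holiday and 78.9 and 75.6 CPM on drug (log2 fold change -0.60, adjusted p 5.2e-13). CCND1, cyclin D1, was at 816 and 829.6 CPM on holiday and 814 and 830.1 CPM on drug and was not called (log2 fold change -0.00077, adjusted p 0.98). Of 52 genes of DNA repair, 37 fell and 5 rose (median -0.19). ATR, the kinase that senses stalled forks, moved from 105 and 109 to 72.4 and 76.6 CPM (log2 fold change -0.52, adjusted p 1.1e-11). The exception among the large changes was PIF1, a helicase, which rose from 14.4 and 16.5 to 38.1 and 37.4 CPM (log2 fold change 1.29, SE 0.050, adjusted p 1.2e-14).

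In the mitosis and spindle list, 49 of 55 tested members rose and 1 fell, with a median of 0.48 and single-pair medians from 0.45 to 0.51. CDC25B, the phosphatase that activates CDK1 at mitotic entry, was at 65.3 and 64.9 CPM on holiday and 125 and 123 CPM on drug (log2 fold change 0.93, SE 0.029, adjusted p 1.3e-17). CCNB2, a mitotic cyclin, moved from 72.8 and 68.2 to 126 and 128 CPM (log2 fold change 0.85, adjusted p 4.5e-16). All 3 mitotic cyclins, all 8 mitotic kinases, 8 of 9 kinesins and 7 of 8 kinetochore proteins were called higher. The kinesin that was not called was KIF20B, at 113 and 112 CPM on holiday and 113 and 121 CPM on drug (log2 fold change 0.052, adjusted p 0.25). BIRC5, survivin, which is both a chromosomal passenger and an inhibitor of apoptosis, moved from 192 and 182 to 243 and 242 CPM (log2 fold change 0.37, adjusted p 5.0e-10). GAS2L3, a cytoskeletal linker that acts in cytokinesis and was in none of the lists, rose from 26.5 and 27.1 to 55.3 and 59.1 CPM (log2 fold change 1.10, adjusted p 1.3e-16). Parental cells moved the same way with the median of the mitosis list at 0.25 and that of the replication list at -0.080. The interaction was called for CDC25B (0.70, adjusted p 4.6e-12) and MCM6 (-0.60, adjusted p 3.1e-11) but not for CDC45 (-0.11, adjusted p 0.057). Replication-dependent histones, whose transcripts lack a poly(A) tail and are caught poorly by poly(A) selection, were called higher in 14 of 35 and lower in 3 (median 0.45), and the DESeq2 Wald test or a filter at a mean CPM of 1 gave 9 that were higher.

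**Figure D3:**
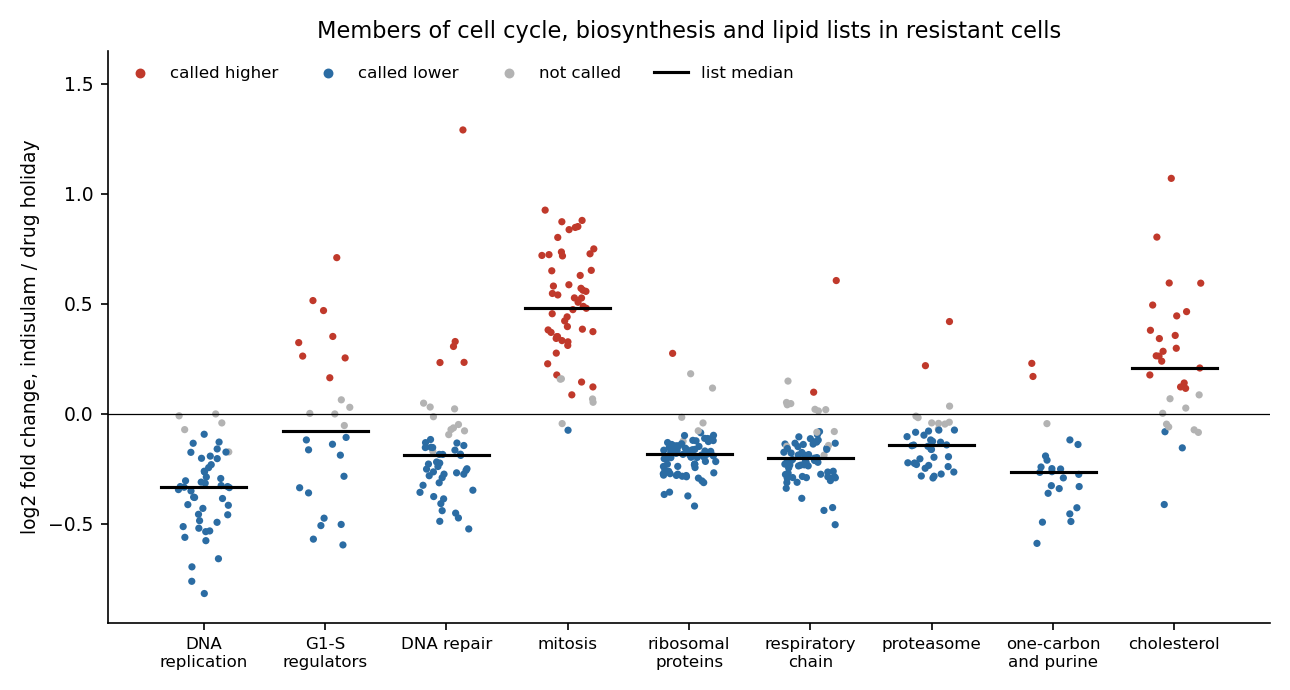
Log2 fold change on drug against drug holiday of each tested member (points, coloured by call) of 9 lists, with the list median as a bar. Replication, ribosomal, respiratory chain, proteasome and one-carbon genes lie mostly below 0, and mitosis and cholesterol genes mostly above it.

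Genes of cytosolic ribosomes, the proteasome, the nuclear respiratory chain and one-carbon and purine synthesis were mostly lower on drug, by small amounts. Of 79 tested cytosolic ribosomal proteins, 72 fell and 1 rose, with a median of -0.18 (single-pair medians -0.22 to -0.15), alike in the large subunit (42 of 46 lower) and the small (30 of 33). RPL3 was at 1686 and 1607 CPM on holiday and 1243 and 1220.0 CPM on drug (log2 fold change -0.42, adjusted p 6.9e-11), and RPLP0 of the ribosomal stalk at 1811 and 1723 CPM on holiday and 1401 and 1360.0 CPM on drug (-0.36, adjusted p 2.3e-09). RPL18, with 622 and 626 CPM on holiday and 619 and 594 CPM on drug, was not called (log2 fold change -0.042, adjusted p 0.23). Proteasome subunits fell in 30 of 40 and rose in 2 (median -0.14). Because these differences are small, they depend on scaling for their size, and with library totals the ribosomal median was -0.134.

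Nuclear genes of the respiratory chain fell in 60 of 74 and rose in 2 (median -0.20). All 4 genes of complex II were called lower, as were 25 of 36 of complex I, 8 of 9 of complex III, 9 of 10 of complex IV and 14 of 15 of ATP synthase. ATP5MC1, a subunit of the membrane ring of ATP synthase, was at 68.6 and 64.4 CPM on holiday and 48.6 and 45.4 CPM on drug (log2 fold change -0.50, SE 0.039, adjusted p 2.3e-10). Transcripts of the mitochondrial genome went the other way or were not called, with 5 of 15 higher and none lower (median 0.21), and 11 higher in a fit of the 4 resistant libraries alone. Without resistant indisulam replicate 1 only 1 was called, and 3 were called with no filter or without resistant indisulam replicate 2, resistant untreated replicate 1 or either untreated parental library. MT-CYB was at 2177 and 2584 CPM on holiday and 3579 and 3237 CPM on drug (log2 fold change 0.52, SE 0.13, adjusted p 0.029), a call that was lost when either on-drug library, resistant untreated replicate 1 or either untreated parental library was left out, with adjusted p from 0.061 to 0.11, and also with a replicate block (adjusted p 0.054) or no filter on low counts (adjusted p 0.059). MT-CO1, at 5789 and 6765 CPM on holiday and 6660.0 and 5980.0 CPM on drug, was not called (log2 fold change 0.0097, adjusted p 0.96), and its groups overlapped. In parental cells the medians of these lists had the opposite sign. They were 0.15 for ribosomal proteins, 0.11 for the nuclear respiratory chain and -0.76 for mitochondrial transcripts. This difference between lists was not tested. Not every member followed its list. In parental cells 68 ribosomal genes were called higher and 5 lower, and 43 nuclear respiratory genes higher and 14 lower. RPL3 and ATP5MC1 had negative log2 fold changes in both lines.

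Serine, one-carbon and purine synthesis fell in 20 of 23 tested genes and rose in 2 (median -0.27). CAD, which starts pyrimidine synthesis, was at 315 and 309.5 CPM on holiday and 229 and 216 CPM on drug (log2 fold change -0.49, adjusted p 1.0e-11). GART, a purine synthesis enzyme, moved from 218 and 214 to 158 and 158 CPM (log2 fold change -0.46, adjusted p 3.8e-12). Holiday and on-drug libraries did not overlap in either, a condition of the naming rule.

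Cholesterol genes rose. Of 31 tested genes of cholesterol synthesis and uptake, 20 were called higher and 3 lower, with a median of 0.21 and single-pair medians from 0.16 to 0.22. The enzymes of the pathway gave 13 of 20 higher and 2 lower. HMGCS1, which makes the precursor of mevalonate, was at 111 and 107.7 CPM on holiday and 161 and 169 CPM on drug (log2 fold change 0.59, SE 0.032, adjusted p 3.1e-13). MVD, a later enzyme of the mevalonate steps, moved from 27.4 and 30.00 to 44.01 and 42.5 CPM (log2 fold change 0.59), and INSIG1, the sterol sensor that holds back SREBP, from 18.8 and 15.7 to 29.5 and 30.7 CPM (0.80, adjusted p 5.7e-06). SREBF2, which encodes the SREBP of cholesterol synthesis, was at 199 and 197 CPM on holiday and 191 and 189.6 CPM on drug and was not called (log2 fold change -0.060, adjusted p 0.073). In the fatty acid list 8 of 15 rose and 3 fell, but 4 rose without resistant indisulam replicate 1 and 5 without resistant untreated replicate 2, with the DESeq2 Wald test or in the 4 resistant libraries alone. SCD, the stearoyl-CoA desaturase, was at 364 and 348 CPM on holiday and 517 and 528 CPM on drug (log2 fold change 0.55, adjusted p 6.9e-13). Interaction tests were called for HMGCS1 (0.53, adjusted p 1.9e-09) and SCD (0.66, adjusted p 4.9e-11), although the lines differed in length of exposure and in baseline. In parental cells HMGCS1 was at 325 and 312 CPM untreated and 329 and 336 CPM after the drug, and SCD at 519 and 502 and then 485 and 461 CPM.

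**Figure D4:**
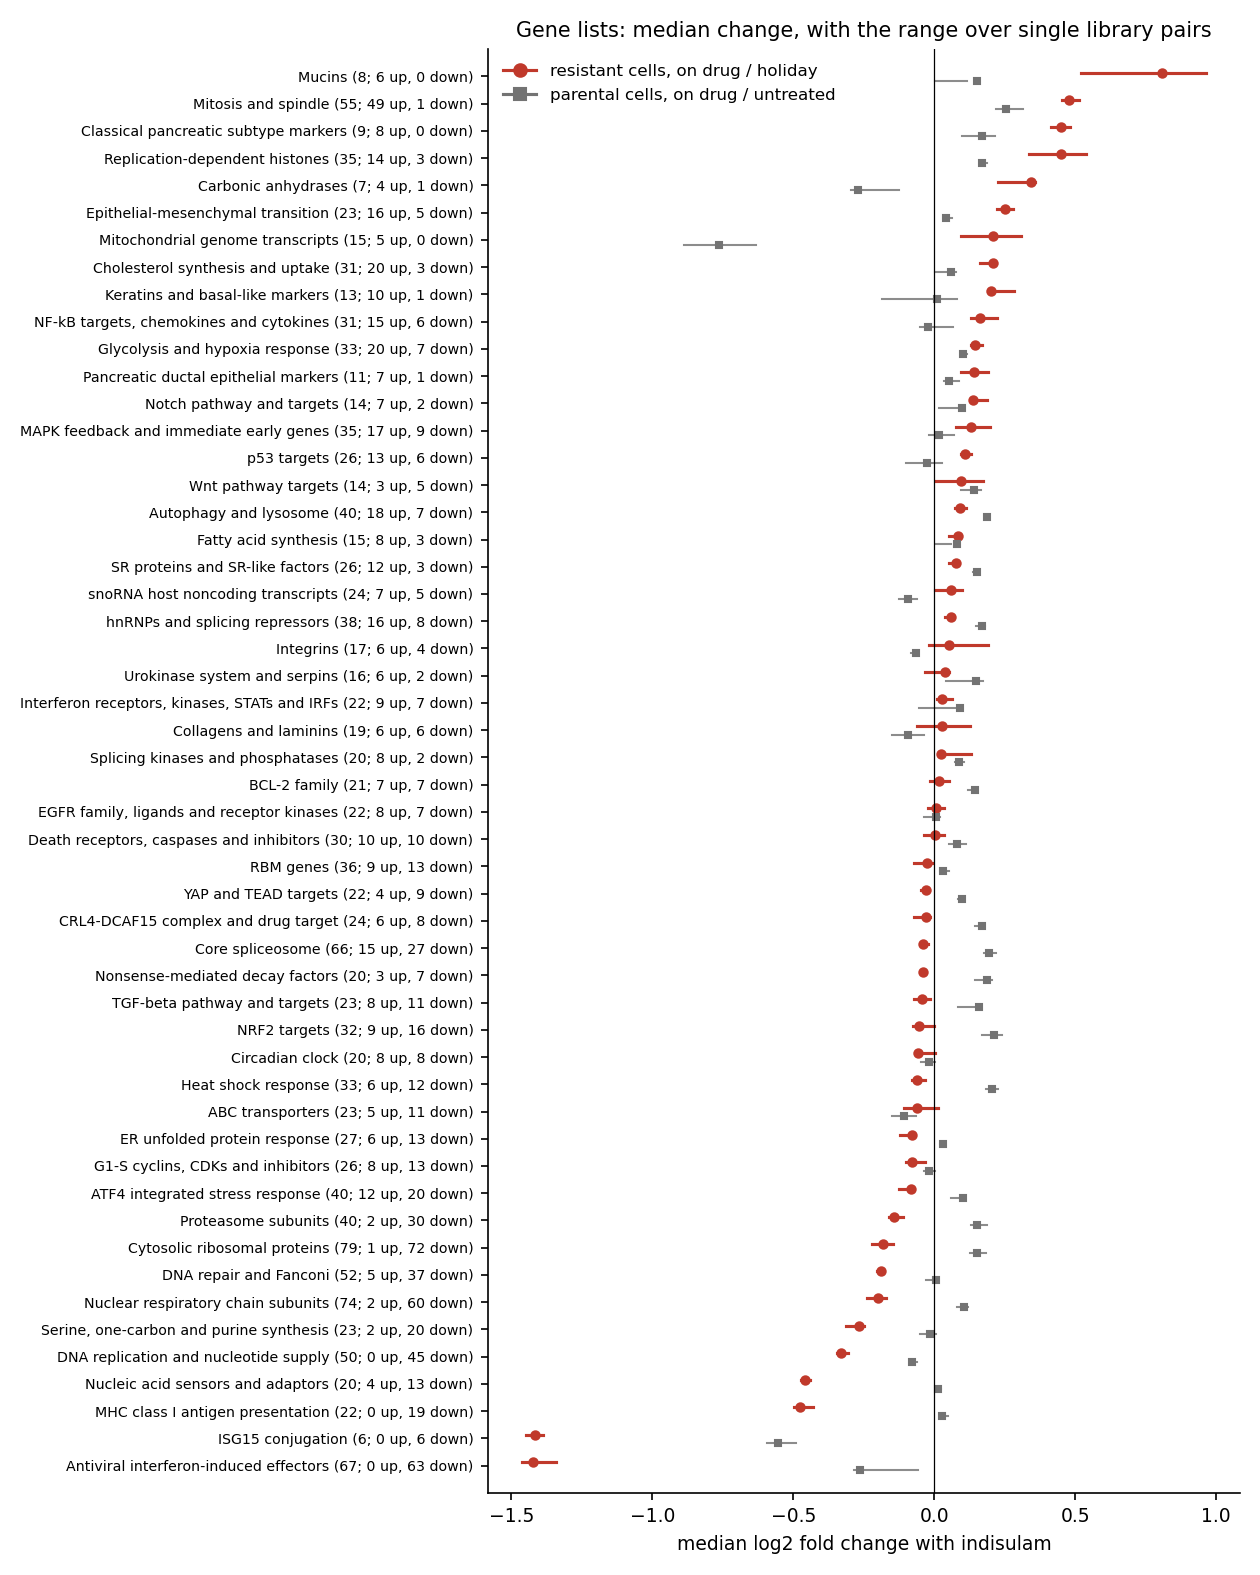
Median log2 fold change with indisulam of every list with at least 5 tested genes, in resistant cells (red circles) and parental cells (grey squares), with bars over the medians of the 4 single library pairs, which share libraries. The labels give in parentheses the genes tested and those called higher and lower in resistant cells. The antiviral list (-1.42) and ISG15 conjugation (-1.42) stand lowest, and mucins (0.81) and mitosis (0.48) highest.

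RNA processing genes, the class to which RBM39 belongs, changed little. No gene of the core spliceosome, SR protein, hnRNP, RBM, splicing kinase or nonsense-mediated decay lists passed 1 log2 unit. In the core spliceosome 15 of 66 rose and 27 fell (median -0.039, -0.29 to 0.35). SR proteins rose in 12 of 26 and fell in 3 (median 0.078), hnRNPs and related repressors rose in 16 of 38 and fell in 8 (median 0.059, and 5 fell with library totals, with a mean CPM of at least 1 as filter or without resistant indisulam replicate 1), and other RBM genes rose in 9 of 36 and fell in 13 (median -0.027). Splicing kinases and phosphatases rose in 8 of 20 and fell in 2 (5 rose without resistant untreated replicate 1), nonsense-mediated decay factors rose in 3 of 20 and fell in 7 (1 rose without resistant untreated replicate 2, and 5 rose and 4 fell with library totals). Noncoding snoRNA hosts rose in 7 of 24 and fell in 5, but 12 rose and 2 fell with library totals, 3 rose with the DESeq2 Wald test, 4 rose without resistant untreated replicate 1 or resistant indisulam replicate 2, and 3 fell without either on-drug library. SRRM1, a coactivator of exon splicing, was at 116 and 117 CPM on holiday and 153 and 149 CPM on drug (log2 fold change 0.38, adjusted p 2.9e-09). PTBP3, a splicing repressor, moved from 164 and 169 to 216 and 227 CPM (log2 fold change 0.41, adjusted p 9.6e-11). HNRNPA1, at 1272 and 1252 CPM on holiday and 1260.0 and 1260.0 CPM on drug, was not called (adjusted p 0.95). Splice junctions and exon use were not analysed here, since the files hold 1 count per gene.

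Stress response lists held a few strong rises, while more of their genes fell than rose. In the integrated stress response list 12 of 40 genes rose and 20 fell (median -0.082). ATF3, a stress-induced transcription factor, was at 8.65 and 8.69 CPM on holiday and 20.1 and 19.3 CPM on drug (log2 fold change 1.18, SE 0.053, adjusted p 9.8e-15), and PPP1R15A (GADD34), a regulatory subunit that directs protein phosphatase 1 to eIF2α, moved from 125 and 126 to 189.9 and 186 CPM (log2 fold change 0.58, adjusted p 3.7e-14). ATF4 itself, at 361 and 351 CPM on holiday and 336 and 349 CPM on drug, was not called (log2 fold change -0.055, adjusted p 0.12, and 0.0498 without resistant untreated replicate 2). The members that fell included 8 of 9 genes for aminoacyl-tRNA synthetases and the tRNA exporter, from -0.54 at the lowest, and 5 of 7 tested amino acid transporters. Among NRF2 targets 9 of 32 rose and 16 fell (median -0.053). HMOX1, heme oxygenase, rose from 7.02 and 7.30 to 18.5 and 16.9 CPM (log2 fold change 1.30, SE 0.066, adjusted p 4.1e-13), and ABCC3, an organic anion exporter, fell from 83.2 and 86.9 to 28.1 and 25.4 CPM (log2 fold change -1.67, SE 0.042, adjusted p 5.3e-19). In the heat shock list 12 of 33 fell and 6 rose, with HSPB8, a small heat shock protein, going from 4.47 and 4.65 to 9.57 and 9.95 CPM (log2 fold change 1.10). The unfolded protein response of the endoplasmic reticulum gave 6 higher and 13 lower of 27. Autophagy and lysosome genes were called higher in 18 of 40 and lower in 7, among them NEU1, a lysosomal sialidase, at 53.3 and 49.1 CPM on holiday and 87.8 and 84.1 CPM on drug (log2 fold change 0.75).

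Immediate early genes and feedback regulators of MAPK signalling rose in 17 of 35 and fell in 9 (median 0.13), with 5 of 7 FOS and JUN family genes called higher and none lower. FOSB was at 4.01 and 4.33 CPM on holiday and 11.2 and 9.96 CPM on drug (log2 fold change 1.34, SE 0.087, adjusted p 8.8e-12), and DUSP1, a phosphatase that inactivates MAP kinases, at 12.5 and 12.98 CPM on holiday and 25.9 and 26.3 CPM on drug (1.04, adjusted p 8.1e-15). For both genes the untreated parental libraries lay below the holiday libraries, at 2.83 and 2.40 CPM for FOSB and 11.6 and 11.5 CPM for DUSP1.

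Cell death genes changed in both directions. Of 21 tested BCL-2 family genes, 7 rose and 7 fell (3 fell with library totals), and of 30 death receptors, caspases and inhibitors, 10 rose and 10 fell. BCL2L1, which encodes the survival protein BCL-XL, was at 413 and 403 CPM on holiday and 386 and 375 CPM on drug (log2 fold change -0.10, SE 0.027, adjusted p 0.0033). This call was lost with library totals (adjusted p 0.088) or without resistant indisulam replicate 2 (adjusted p 0.058). BAX, a pore-forming effector, moved from 96.01 and 94.9 to 121 and 115 CPM (log2 fold change 0.30, adjusted p 1.7e-08), and BID, which links death receptors to mitochondria, from 38.8 and 40.6 to 27.3 and 25.96 CPM (-0.58, adjusted p 3.6e-11). TNFRSF10D, a decoy receptor for TRAIL, rose from 49.6 and 47.3 to 82.7 and 83.8 CPM (log2 fold change 0.78, adjusted p 7.4e-15). Of 26 p53 targets, 13 rose and 6 fell (median 0.11).

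Epithelial genes rose and several TGF-beta targets fell. Keratins and basal-like markers were called higher in 10 of 13 and lower in 1 (median 0.20), markers of the classical pancreatic subtype were called higher in 8 of 9 and lower in none, and mucins in 6 of 8 and lower in none. Several of these markers were at low levels, and with a mean CPM of at least 1 as filter 5 classical markers and 3 mucins were called higher. KRT17, a keratin of basal and stressed epithelium, rose from 2.54 and 2.73 to 13.8 and 13.9 CPM (log2 fold change 2.40, SE 0.080, adjusted p 3.5e-17), while parental cells were at 0.420 and 0.402 CPM untreated and 0.334 and 0.336 CPM on drug. Of 12 genes of epithelial junctions and their regulators 10 rose and 1 fell. CLDN4 was at 271 and 270.2 CPM on holiday and 395 and 383 CPM on drug (log2 fold change 0.52), CLDN3 at 4.32 and 4.83 CPM on holiday and 9.20 and 9.30 CPM on drug (1.02) and CLDN1 at 1.12 and 1.42 CPM on holiday and 3.90 and 3.94 CPM on drug (1.64). These 3 claudins seal tight junctions. ELF3, an epithelial transcription factor, rose from 4.36 and 4.10 to 9.82 and 11.2 CPM (log2 fold change 1.32, adjusted p 2.4e-11). COL17A1, a hemidesmosome collagen, was at 14.2 and 14.4 CPM on holiday and 31.1 and 29.99 CPM on drug (log2 fold change 1.09, adjusted p 1.1e-15). CD24, a surface glycoprotein of epithelial progenitors, rose from 5.66 and 5.73 to 16.4 and 16.8 CPM (log2 fold change 1.54, adjusted p 3.5e-15). CD24 was named for the size of its rise and not as a member of a list.

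In the TGF-beta list 11 of 23 genes fell and 8 rose (median -0.042), but 4 rose without resistant untreated replicate 1 or resistant indisulam replicate 1 5 without resistant indisulam replicate 2 and 3 with the DESeq2 Wald test. TGFBI, a matrix protein named for its induction by TGF-beta, was at 450.0 and 441 CPM on holiday and 218 and 215 CPM on drug (log2 fold change -1.04, SE 0.027, adjusted p 2.9e-19). PMEPA1, a feedback inhibitor of the pathway, moved from 91.6 and 91.96 to 47.1 and 46.7 CPM (log2 fold change -0.97), and INHBA, the activin A chain, from 48.2 and 51.02 to 33.97 and 34.1 CPM (-0.54). All 3 stayed well above the untreated parental libraries, at 25.7 and 25.3, 2.72 and 2.51 and 1.43 and 1.46 CPM in the same order. The mesenchymal and matrix genes of the transition list were mixed, with 6 higher and 4 lower of 11 tested (median 0.34, from -1.91 to 1.04). Their median was not below that of the epithelial junction genes (0.22). Over the whole transition list 16 of 23 tested genes rose and 5 fell (median 0.25). NT5E (CD73), an ectoenzyme that makes adenosine, fell from 538 and 523 to 296 and 304 CPM (log2 fold change -0.82, adjusted p 7.3e-17), and GAS6, the ligand of the TAM receptor kinases, from 265 and 280.2 to 163 and 159 CPM (-0.76, adjusted p 2.1e-15). SERPINB2, an inhibitor of plasminogen activators, rose from 32.4 and 33.4 to 63.3 and 65.1 CPM (log2 fold change 0.97, adjusted p 1.2e-15).

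Signalling and adhesion lists changed in both directions. EGFR family ligands and receptor kinases rose in 8 of 22 and fell in 7, YAP and TEAD targets in 4 and 9 of 22 (8 and 5 with library totals), Wnt targets in 3 and 5 of 14 (6 and 3 with library totals, while 0 rose with the DESeq2 Wald test and 1 with a mean CPM of at least 1 as filter or without resistant untreated replicate 1 or resistant indisulam replicate 2), and the Notch pathway in 7 and 2 of 14. Integrins rose in 6 of 17 and fell in 4, collagens and laminins in 6 and 6 of 19, and the urokinase system in 6 and 2 of 16 (3 rose with the DESeq2 Wald test or without resistant untreated replicate 2 or resistant indisulam replicate 2). Genes of glycolysis and the hypoxia response rose in 20 of 33 and fell in 7 (median 0.14), and carbonic anhydrases rose in 4 of 7 (2 with the DESeq2 Wald test) and fell in 1. ABC transporters fell in 11 of 23 and rose in 5 (8 with library totals), and clock genes rose in 8 of 20 and fell in 8.

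The remaining genes among the 10 protein-coding genes with the largest rises at an average log2 CPM of 3 or more over the 4 libraries belonged to no list. ACKR2, a scavenger of chemokines, rose from 5.12 and 4.96 to 14.6 and 14.3 CPM (log2 fold change 1.52, adjusted p 2.2e-14) and was at 0.0731 and 0.0468 CPM in untreated parental cells. ESAM, a junctional adhesion molecule, moved from 8.84 and 9.13 to 18.99 and 18.6 CPM (log2 fold change 1.06), and ZNF850, a zinc finger gene on chromosome 19, from 6.13 and 5.93 to 14.9 and 14.5 CPM (1.28). ADAMTSL4 (log2 fold change 1.20) is uncertain, because its exons overlap those of MCL1 on the opposite strand, which holds 97% of the reads of the pair. Of noncoding genes, LINC03061 rose from 140.2 and 161 to 324 and 349 CPM (log2 fold change 1.16, adjusted p 2.8e-05) and the pseudogene FAM86JP fell from 18.2 and 17.9 to 7.50 and 7.05 CPM (-1.32, adjusted p 5.8e-15). SLC9A3-AS1 (log2 fold change 1.22, adjusted p 0.0044) is antisense to a coding gene, and reads of the 2 strands may not have been told apart.

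The balance of calls differed with how strongly a gene was expressed. Of 1572 protein-coding genes with a mean CPM under 1, 27.8% were called higher on drug and 6.62% lower, and 287 rose and 52 fell past 1 log2 unit. Of 8648 at 10 CPM and over, 26.7% were called higher and 38.1% lower, and 14 rose and 61 fell past 1 log2 unit. The median log2 fold change was 0.33 under 1 CPM and -0.033 at 10 CPM and over. With library totals the median over all tested genes was 0.058 in place of 0.0093. Shares by class were not computed with that scaling, and the classes were not matched for read counts. Among lncRNAs under 1 CPM 14.5% were called higher and 5.14% lower, and at 10 CPM and over 30.5% and 39.1%. The share of reads outside genes was also higher in both on-drug libraries (6.16% and 6.21% against 4.72% and 5.41%), and its part in the rise of weakly expressed genes was not tested.

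**Figure D5:**
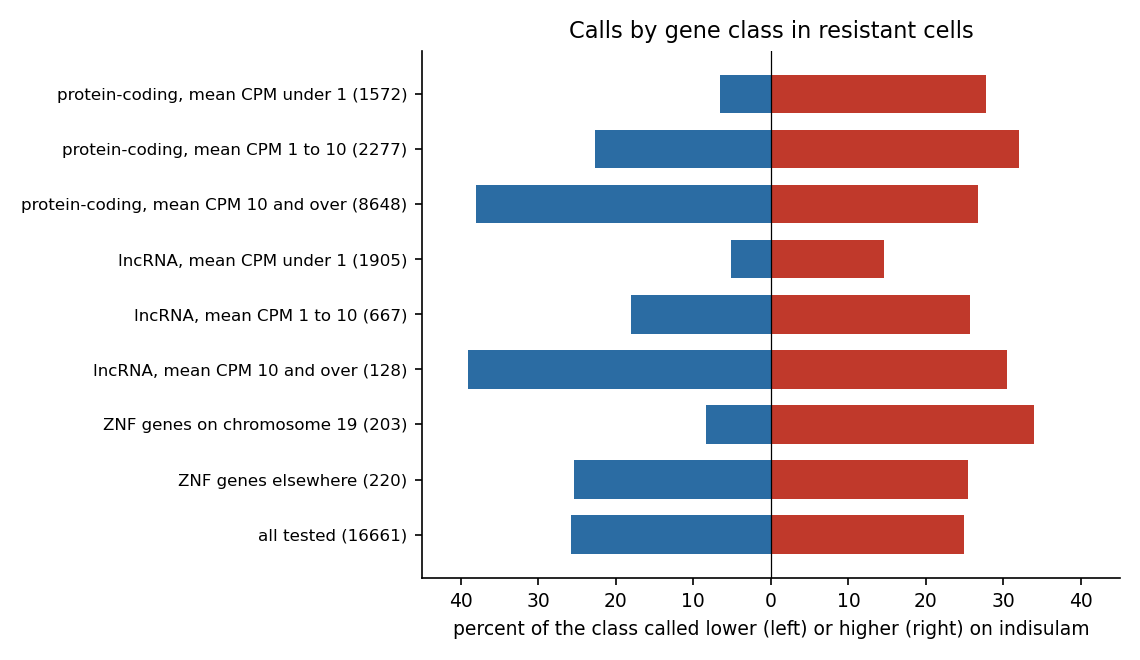
Percent of the tested genes of each class that were called higher (red, right) or lower (blue, left) on drug, with the number of genes in parentheses and mean CPM taken over the 4 resistant libraries. Calls that are lower grow from 6.62% to 38.1% of protein-coding genes from the weakest to the strongest expression class, and zinc finger genes on chromosome 19 have few (8.37%).

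Other structural classes differed less. At 10 CPM and over, genes in the shortest quartile of genomic span were called lower in 42.7% and higher in 23.4%, and those in the longest in 34.2% and 31.3%, while genes of 1 exon (33.3% lower, 25.5% higher) and of 20 exons or more (35.2% lower, 28.9% higher) were close to each other. Of 203 ZNF genes on chromosome 19, where most KRAB zinc finger repressors are clustered, 34.0% were called higher and 8.37% lower, against 25.5% and 25.5% of 220 ZNF genes elsewhere and 28.8% and 24.9% of 747 other protein-coding genes of chromosome 19. Their changes were small, with a median log2 fold change of 0.098 on chromosome 19 and 0.0040 elsewhere.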

How the data were processed

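Poly(A)-selected, stranded, paired-end RNA-seq libraries of Panc10.05 cells were trimmed with SeqPurge and aligned to GRCh38 with HISAT2 2.2.1 by the authors, as described in the study's methods. The submitters' processing notes also name Picard and HTSeq with no role. The deposited files hold raw read counts for 60675 Ensembl genes, and 9 further lines of unassigned reads or totals were kept out of library sizes. The strand setting of the counting and the annotation release were not given in the sources used here. Symbols, positions and biotypes came from GENCODE 44 (60419 identifiers matched), and promoters from RefSeq.

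Differential expression was tested with edgeR 4.0.16 in R 4.3.3 (quasi-likelihood, robust, TMM factors, filterByExpr) on all 8 libraries with 4 group means, so that the spread was shared, and a gene was called at a Benjamini-Hochberg adjusted p under 0.05. Standard errors are the absolute log2 change over the root of the F statistic. With 2 libraries a group an exact permutation test cannot go below p = 0.333, so no test of single values was made. The code was tested on simulated counts. The chi-square statistic per gene between libraries of a group was 5.74 on holiday and 3.88 on drug, so they differed by more than sampling noise and were counted as 2. Groups follow the titles. Alternatives covered scaling, DESeq2 1.42.0, filters, thresholds, features, the replicate block and leaving out each library.

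The comparison and the 57 gene lists were chosen with earlier results of these data known. Named genes were, by rule, the 10 largest called changes of protein-coding genes in each direction with log2 CPM averaging 3 or more, up to 3 noncoding genes each way by the same limits, RBM39, DCAF15, DDA1, CAND1 and BCL2L1, up to 4 called members of each list with the largest change with log2 CPM averaging 0 or more, and the most expressed uncalled member of a list. Groups had to be without overlap for a called gene to be named by these limits. B2M and the metallothioneins were added after their values were seen. Genes sharing exons with another gene that holds over 50% of the pair's reads are given as uncertain. Figures were drawn with matplotlib 3.10.9. Some genes that the rule names are not reported here.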

Additional observations from a re-analysis of the deposited data

Results flagged for a closer look

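The responses of the lines to indisulam differed for many of the genes named above, by the interaction term of the same edgeR fit at an adjusted p under 0.05, which called 50.1% of all tested genes. Values are the log2 response in resistant cells minus that in parental cells. The exposures were continuous in resistant cells and 18 h in parental cells. The baseline was 1 week off the drug for resistant cells and no treatment for parental cells. Line, length of exposure and baseline cannot be told apart. Among antiviral genes the difference was -4.51 for IFI6, -3.77 for IFI44L, -3.92 for OAS1, -3.08 for OAS2, -2.29 for OAS3, -3.80 for IFI27, -6.07 for MX2, -2.27 for IFITM1, -2.69 for SP110 and -2.02 for PARP9, while ISG20 differed by 0.40. Sensors and transducers gave -1.54 for IFIH1, -1.81 for IFI16, -1.04 for RIGI, -0.14 for CGAS, -0.27 for STAT2 and 0.36 for IRF3. The ISG15 genes gave -2.25 for USP18, -1.28 for ISG15, -1.11 for HERC6 and -1.45 for UBE2L6. Antigen presentation gave -1.56 for HLA-B, -1.31 for HLA-C, -1.02 for HLA-F, -0.97 for HLA-H, -1.18 for B2M and -0.18 for NLRC5. Of NF-kB targets LTB differed by 1.21 and TNFAIP3 by 0.73.

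Genes of the ligase and of cell death differed by less. The values were -0.18 for RBM39, 0.19 for DCAF15, -0.25 for CAND1, -0.11 for NAE1, -0.29 for BCL2L1, -0.33 for BID and 0.53 for TNFRSF10D. In the cell cycle they were -0.37 for POLA1, -0.60 for MCM6, -0.19 for E2F1, -0.20 for ATR, 0.70 for CDC25B, 0.30 for CCNB2, 0.13 for KIF20B, 0.43 for GAS2L3 and 1.39 for PIF1. Biosynthesis and mitochondria gave -0.27 for RPL3, -0.37 for RPLP0, -0.18 for RPL18, 0.15 for ATP5MC1, -0.31 for GART, 1.26 for MT-CYB and 0.78 for MT-CO1. Lipid genes gave 0.53 for HMGCS1, 0.74 for INSIG1, 0.73 for MVD and 0.66 for SCD, and the splicing factors -0.16 for SRRM1 and 0.25 for PTBP3.

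In stress and signalling genes the difference was 1.28 for FOSB, 0.87 for DUSP1, 0.97 for ATF3, 0.10 for PPP1R15A, -0.25 for ATF4, 0.65 for HMOX1, -0.34 for ABCC3, 0.58 for HSPB8 and 0.32 for NEU1. Metallothioneins gave 3.61 for MT1F, 4.16 for MT1G, 1.91 for MT1X, 0.36 for MT2A and -0.34 for MT1E. Epithelial genes gave 2.69 for KRT17, 1.34 for ELF3, 1.33 for CLDN1, 0.73 for CLDN3, 0.16 for CLDN4, 1.33 for CD24 and 1.39 for COL17A1. Genes of the TGF-beta list gave -1.05 for TGFBI, -0.84 for PMEPA1 and -1.09 for INHBA. The ectoenzyme NT5E gave -0.79 and the receptor ligand GAS6 -0.66. Further values were 1.13 for ESAM, 1.71 for ACKR2, 0.50 for ZNF850, 1.72 for ADAMTSL4, 1.52 for SLC9A3-AS1 and 0.52 for LINC03061.

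The medians of 18 lists lay on opposite sides of 0 in the lines, in each of the 4 single library pairs of either line. These differences between lists were not tested. They depend on scaling, since with library totals the medians of the lines lay on opposite sides of 0 for 10 of these lists and on 1 side for 8, namely the CRL4-DCAF15 complex, nucleic acid sensors, MHC class I presentation, the core spliceosome, nonsense-mediated decay, the unfolded protein response, YAP targets and TGF-beta. For RBM genes both medians changed sides. The resistant median minus the parental median was -0.199 for the CRL4-DCAF15 complex, -0.471 for nucleic acid sensors, -0.501 for MHC class I presentation, -0.234 for the core spliceosome, -0.0591 for RBM genes, -0.226 for nonsense-mediated decay, 0.153 for snoRNA hosts, -0.185 for the ATF4 list, -0.264 for NRF2 targets, -0.264 for heat shock, -0.109 for the unfolded protein response, -0.335 for ribosomal proteins, 0.972 for mitochondrial genome transcripts, -0.307 for the nuclear respiratory chain, -0.293 for the proteasome, -0.126 for YAP targets, -0.201 for TGF-beta and 0.614 for carbonic anhydrases.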

How the results depend on the processing

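For the 15 results that answer the comparison (gene counts and the medians of 9 lists), 223 of 252 alternative values moved by less than the SD over single library pairs (medians) or 1.5 times (counts), and none turned the other way. A test against 0.5 log2 units (glmTreat) called 879 genes, 524 higher and 355 lower, with 325 higher past 1 log2 unit and 908 in the difference between lines. The DESeq2 Wald test called 2759 genes higher, 331 of them past 1 log2 unit. A mean CPM of at least 1 gave 104 higher and 106 lower past 1 log2 unit, and protein-coding genes alone 395 and 155; these settings test fewer weakly expressed genes. With library totals, which moved the median of all genes to 0.058, the list medians were -1.37 for ISG15 conjugation, -0.427 for MHC class I, -0.282 for DNA replication, 0.528 for mitosis, -0.134 for ribosomal proteins, -0.152 for the respiratory chain, 0.257 for cholesterol and -0.218 for one-carbon and purine genes. Of 830 alternative medians of 52 lists, 20 changed sign, 6 of these with library totals, in 14 lists whose medians were at most 0.0953 from 0. With a mean CPM of at least 1 medians were -1.39 for ISG15 conjugation, -0.411 for MHC class I, -0.303 for DNA replication and 0.512 for mitosis. Leaving out single libraries gave 6964 to 8704 called genes and medians of -0.352 to -0.311 for DNA replication, -0.221 to -0.145 for ribosomal proteins and -0.244 to -0.177 for the respiratory chain. Replicate numbers were not used to pair the libraries. Deviations from the group means of like-numbered libraries correlated at -0.058. With 2 libraries per group this cannot show whether like-numbered libraries were handled together. A replicate block left 8319 called genes. Of 103 named genes over 1950 alternative fits, none reversed, 35 calls were lost and 6 gained. With glmTreat 21 of these were lost. The other losses fell on DCAF15, BCL2L1 and MT-CYB. Apart from the alternatives given, the causes were not tested. Counts of at most 3 list members called in 1 direction also moved by 1 or 2 without single libraries. Depth limits weak genes, and 9 genes called higher had no read on holiday.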

Other observations

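Metallothioneins, small cysteine-rich proteins that bind zinc and copper and are induced by metals and oxidants, rose on continued drug. They were in none of the lists and were named after their values were seen. Of 6 tested members 5 were called higher and none lower, against 24.9% of all tested genes called higher. Their median log2 fold change was 3.04, with a range from 0.041 to 8.09. The member at 8.09 is not described below. The promoter of MT1X, one of them, is printed because metal response elements recur in this family, 170 bases before the RefSeq start on GRCh38.p14 at chr16:56682300-56682469, plus strand, with the core letters TGCACNC or TGCGCNC in capitals on either strand.
MT1X: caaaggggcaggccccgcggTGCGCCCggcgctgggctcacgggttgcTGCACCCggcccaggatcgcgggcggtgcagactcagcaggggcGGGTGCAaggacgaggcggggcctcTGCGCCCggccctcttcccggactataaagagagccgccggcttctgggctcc
There were 4 matches in it, beginning 150, 122, 78 and 53 bases before the start. The core letters are short and were present in 38.6% of promoters of tested genes and 29.4% of all promoters of 300 bases.

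MT1F was at 1.26 and 1.22 CPM in the holiday libraries and 18.7 and 18.8 CPM in the on-drug libraries (log2 fold change 3.92, SE 0.088, adjusted p 1.4e-20, edgeR). MT1G was at 0.0810 and 0.0770 CPM on holiday and 2.05 and 2.01 CPM on drug (log2 fold change 4.65), a few reads in the holiday libraries. MT1X was at 1.53 and 1.43 CPM on holiday and 6.47 and 6.72 CPM on drug (log2 fold change 2.15, adjusted p 7.7e-14). The groups did not overlap in these 3 genes. They also did not overlap in MT2A and MT1E, described next, although MT1E was not called. MT2A, the most abundant, moved from 527 and 538 to 845 and 796 CPM (log2 fold change 0.62, adjusted p 2.9e-13). MT1E was at 116 and 112 CPM on holiday and 117 and 118 CPM on drug and was not called (log2 fold change 0.041, adjusted p 0.30), but it was called higher with library totals (adjusted p 0.023). Untreated parental libraries were at 0.512 and 0.505 CPM for MT1F, 1.03 and 1.10 CPM for MT1X and 408 and 404 CPM for MT2A. Metallothionein genes are close in sequence, so reads may be shared between members.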
